A study of Homo sapiens with 6 samples.

Results

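The histone genes of the deposited FPKM table were examined in HK-2 cells with and without TEPP-46. Histone genes were taken as the protein-coding genes of GENCODE whose current symbols belong to the H1, H2AC, H2BC, H3C and H4C series. The variant genes taken were H1-10, H2AZ1, H2AZ2, H2AX, H3-3A, H3-3B, MACROH2A1 and MACROH2A2. Of these genes 79 are described here, and the Ensembl identifiers of 61 were found among the 29483 genes of the table. The other 18 (H1-1, H1-8, H2AC1, H2AC7, H2AC15, H2AC17, H2AC18, H2AC19, H2BC1, H2BC3, H2BC9, H3C2, H3C3, H3C4, H3C7, H4C6, H4C7 and H4C13) were not analysed here. Of the 61 genes, 53 were counted as replication-dependent, by symbol alone. The other 8 were counted as variant genes (H1-10, H2AX, H2AZ1, H2AZ2, H3-3A, H3-3B, MACROH2A1 and MACROH2A2).

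HK-2, a cell line derived from human proximal tubule epithelium and immortalised with papillomavirus genes, was used throughout, and all 6 libraries come from this line. Cells of both groups were kept in medium with 25 mM glucose for 7 days. The case group (3 libraries) then received 10 μM TEPP-46, an activator of the glycolytic enzyme PKM2, for 1 day, and the control group (3 libraries) did not. The study describes the replicates as independent and treated separately, and P-values measure the spread between these libraries of 1 cell line.

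The keratin genes of simple epithelia were abundant in every library, with KRT19 at 299.8 to 384 FPKM, KRT8 at 246 to 356 FPKM and KRT18 at 158 to 202 FPKM. The defining genes of differentiated proximal tubule were near 0. Of 10 such markers 8 were in the table and none passed the filter on low values, the most abundant was GGT1 with a mean of 0.162 FPKM, and LRP2, which encodes the receptor megalin, was above 0 in 1 library only. Their summed FPKM was 0.467, 0.546 and 0.550 in control replicates 1, 2 and 3 and 0.355, 0.325 and 0.413 in case replicates 1, 2 and 3. Markers of leukocytes, endothelium, fibroblasts and other nephron segments summed to at most 0.197 FPKM in any library over the 8 of 12 in the table.

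Histones are the proteins on which DNA is wound. H2A, H2B, H3 and H4 form the core of the nucleosome, and the linker histone H1 binds where the DNA enters and leaves it. Replication-dependent histone genes lie in clusters, lack introns in their usual form and are transcribed mainly in S phase, when new DNA has to be packaged. Their mRNAs normally end in a conserved stem-loop in place of a poly(A) tail, and this stem-loop is bound by the protein SLBP, while variant histones are mostly made throughout the cell cycle from ordinary polyadenylated mRNAs. Whether the libraries were made from polyadenylated RNA or from RNA without ribosomal RNA is not given in the sources used here, and an mRNA without a tail is captured poorly by the first method.

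The stem-loops were located in GRCh38 because they divide the genes into those whose usual mRNA has no tail and those with a tail. A stem of 6 paired bases that begins with GG, with a loop of 4 bases that begins with TT, was searched on the coding strand in the 150 bases after the stop codon. It was found in 64 of the 71 replication-dependent genes of the annotation, between 23 and 68 bases after the stop, and in 1 of the 8 variant genes, H2AX. The 7 of the 71 without it were H1-7, H1-8, H2AC11, H2AC15, H2BC10, H3C6 and H4C13, which were counted as replication-dependent by symbol. The stem began with GGCC in all 14 H4 genes that hold it and in H2AX, and with GGCT in the 50 genes of the other classes. Stem-loops of 9 upregulated replication-dependent genes and of H2AX are shown as DNA, 5′ to 3′ on the coding strand, with the 16 bases of the stem and loop in capitals and 5 bases on either side.
H1-4 (chr6:26157095-26157110, plus strand): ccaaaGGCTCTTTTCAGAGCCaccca
H1-5 (chr6:27866797-27866812, minus strand): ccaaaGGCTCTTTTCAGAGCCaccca
H2AC6 (chr6:26124669-26124684, plus strand): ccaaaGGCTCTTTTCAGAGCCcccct
H2AC20 (chr1:149887391-149887406, plus strand): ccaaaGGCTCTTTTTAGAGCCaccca
H2BC4 (chr6:26123472-26123487, minus strand): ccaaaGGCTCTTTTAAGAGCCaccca
H2BC11 (chr6:27132321-27132336, minus strand): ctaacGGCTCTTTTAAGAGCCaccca
H2BC17 (chr6:27893870-27893885, plus strand): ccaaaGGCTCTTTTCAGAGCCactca
H4C2 (chr6:26026901-26026916, minus strand): ccaatGGCCCTTTTCAGGGCCgccca
H4C8 (chr6:26285131-26285146, minus strand): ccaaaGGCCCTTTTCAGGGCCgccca
H2AX (chr11:119094898-119094913, minus strand): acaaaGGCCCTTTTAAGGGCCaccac
The 26 bases shown for H1-4 and H1-5 are the same, and the stem of H2AX has the letters of the H4 genes.

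FPKM is the number of reads on a gene divided by the length of the gene and by the reads of the library, so that levels of different genes can be compared per length. For the comparison, FPKM values were divided by 1 scaling factor per library, 0.1 was added, and the log2 values were tested with limma. This test was run on the 13599 genes with a mean of at least 0.5 FPKM over the 6 libraries, and genes with an adjusted P-value of at most 0.05 over all of them were taken as DE genes. Fold changes are case over control on the log2(FPKM + 0.1) scale with the standard error as SE, which understates the change of low genes, and the FPKM values of single libraries are given before scaling. Of the histone genes, 43 were tested, 35 replication-dependent and 8 variant.

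Histone genes were among the upregulated genes of the case group, and no histone gene was downregulated or lower at an unadjusted p under 0.05. Of the 35 replication-dependent genes tested, 11 were upregulated DE genes (31.4%), where 7.34% of all tested genes were upregulated and 5.84% were downregulated. They were H1-4 and H1-5, H2AC6, H2AC12 and H2AC20, H2BC4, H2BC11 and H2BC17, and H4C1, H4C2 and H4C8. Of the 8 variant genes, 2 were upregulated, H2AX and H3-3B. At an unadjusted p under 0.05, 20 of 35 replication-dependent and 5 of 8 variant genes were higher, where 33.1% of all tested genes passed in either direction. In bulk RNA, more cells in S phase and more histone RNA per cell cannot be told apart.

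The median log2 fold change was 0.53 over the replication-dependent genes and 0.25 over the variant genes, where it was -0.0017 over all tested genes. By class, it was 0.95 for H1 (3 tested), 0.77 for H2A (11 tested), 0.46 for H4 (8 tested), 0.32 for H2B (9 tested) and 0.25 for H3 (4 tested). These medians include genes that passed the filter only through the case group, 3 each in H2A and H4 and 1 each in H2B and H3. Case and control values did not overlap in 18 of the 35 replication-dependent and 4 of the 8 variant genes, with case above control in each, where 19.5% of all tested genes lay that way. The filter bears on these numbers, because 8 replication-dependent genes had a control mean under 0.5 FPKM and passed it through their higher values in the case group, 2 of them (H4C1 and H4C2) as upregulated genes. With a mean of at least 0.5 FPKM required in each group, an alternative that was added once the data were known, 11 of 26 replication-dependent genes were upregulated, where 7.78% of all genes tested in this way were, and their median was 0.39. The median was then 0.95 for H1, 0.60 for H2A, 0.39 for H4, 0.32 for H2B and 0.14 for H3. Besides the 8 genes, this filter left out H4C11, a gene lower in the case group. Its control mean was 0.85 FPKM, its case mean 0.453 FPKM and its log2 fold change -0.81. Over all 53 replication-dependent genes in the table, the mean FPKM as deposited was higher in the case group for 36 and lower for 16.

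**Figure D1:**
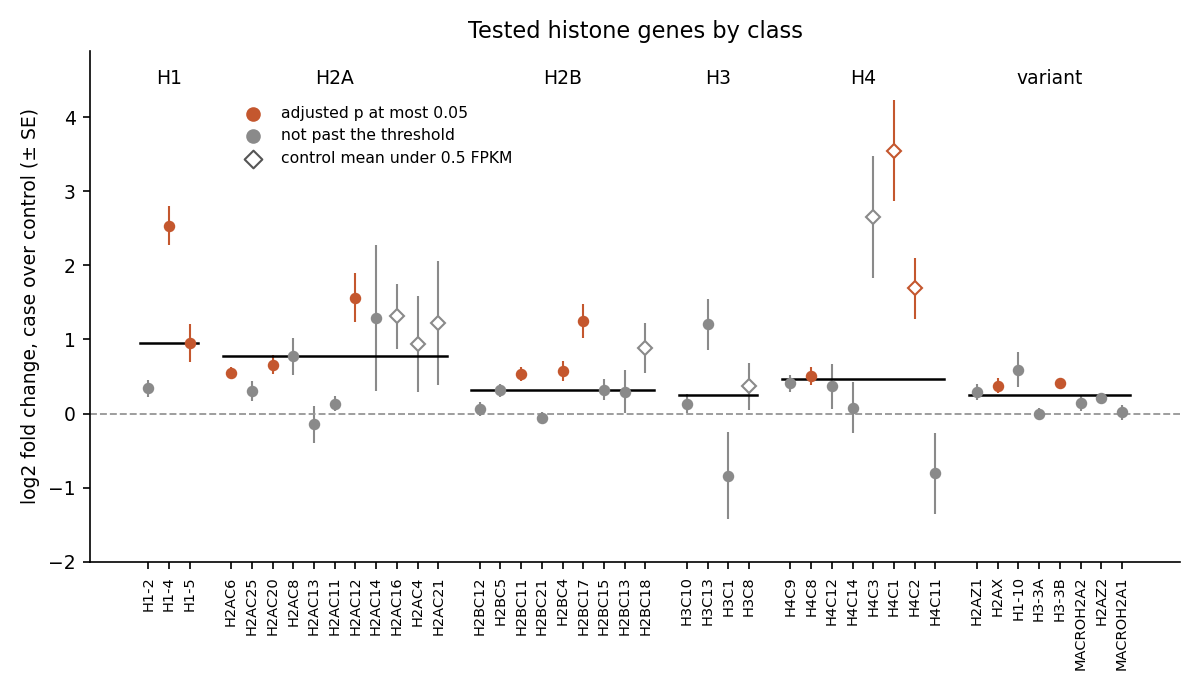
Log2 fold change of case over control (y axis, points, with the standard error as bars) for the 43 tested histone genes, ordered within each class from high to low mean FPKM. Black lines are class medians and the dashed line is the median of all tested genes; 38 genes lie above 0 and 5 below, and the open diamonds, with a control mean under 0.5 FPKM, hold the highest value, 3.55 for H4C1.

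The calls depended on single libraries. Without control replicate 1, 2 or 3 the number of upregulated replication-dependent genes was 1, 1 and 3, without case replicate 3 it was 2, without case replicate 1 it was 10, and without case replicate 2 it was 13. The variant genes upregulated numbered 0 when a control replicate or case replicate 3 was left out, and 2 and 3 without case replicates 1 and 2. The upregulated genes among all tested genes numbered 998 with all libraries, 76, 55 and 68 without control replicates 1, 2 and 3, 121 without case replicate 3, and 1221 and 1813 without case replicates 1 and 2. With a correction for gene length, 7 replication-dependent genes were upregulated, and 870 genes among all tested. H1-4 was upregulated in all 20 alternative settings, and no histone gene was downregulated in any of them. Calls were lost most often for H1-5 (13 of 20 settings), H2BC4 (11 of 20), H4C2 (10 of the 18 in which it was tested), and H2AX and H4C8 (10 of 20 each).

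The scaling between libraries bears on the direction of all genes. In all, 998 genes were upregulated and 794 were downregulated, against 662 and 1124 with FPKM as deposited and 383 and 2387 with TPM, where the median of all tested genes was -0.08 and -0.19. The upregulated histone genes numbered 10 with FPKM as deposited and 8 with TPM, all of them replication-dependent under TPM, where no variant gene passed.

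**Figure D2:**
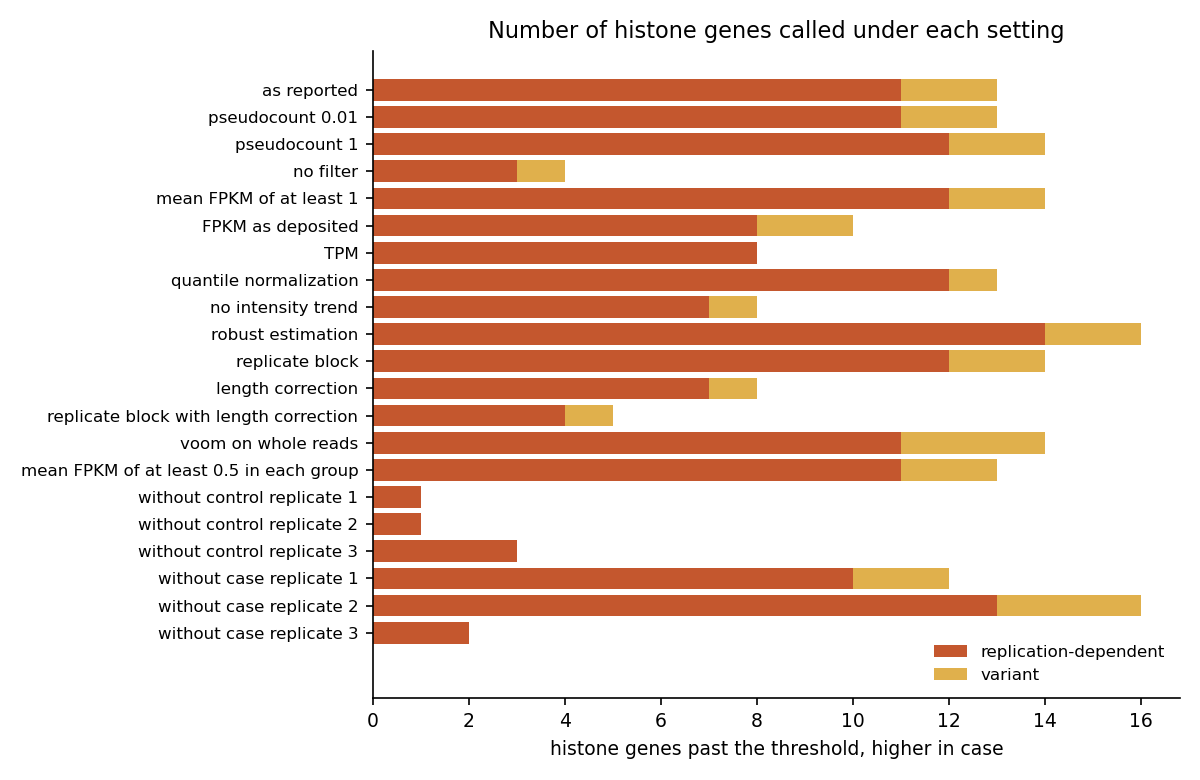
Number of histone genes upregulated in the case group (x axis) for each setting of the processing (y axis), divided into replication-dependent and variant genes. The number runs from 1 without control replicate 1 or 2 to 16 with robust estimation or without case replicate 2.

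Among the linker histones, H1-4 had the lowest adjusted P-value of all histone genes. H1-4 (ENSG00000168298, chr6:26156329-26157115) was at 1.85, 1.11 and 1.14 FPKM in control replicates 1, 2 and 3 and at 6.27, 6.61 and 11.4 FPKM in case replicates 1, 2 and 3. Every case library was above every control library, with case replicate 3 the highest. The log2 fold change was 2.54 (SE 0.26, limma adjusted p = 0.0043), on 26, 15 and 15 whole reads in the control libraries and 79, 80 and 132 in the case libraries.

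H1-5 (ENSG00000184357, chr6:27866792-27867588) encodes another replication-dependent linker histone and was low in all libraries. Its FPKM was 1.10, 0.655 and 0.676 in the control group and 1.41, 1.28 and 2.01 in the case group, with no overlap. The log2 fold change was 0.95 (SE 0.26, limma adjusted p = 0.048).

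H1-2 (ENSG00000187837, chr6:26055740-26056470) was the most abundant replication-dependent histone gene of the table. It was at 350.5, 339 and 364 FPKM in the control group and at 444, 365 and 464 FPKM in the case group. Case replicate 2 lay beside the highest control library, and the other case libraries stood clearly above. The log2 fold change of 0.34 (SE 0.11) did not pass the threshold (limma adjusted p = 0.0822). Expressed as a share of H1-2, H1-4 was 0.528%, 0.327% and 0.315% in the control libraries and 1.41%, 1.81% and 2.46% in the case libraries. H1-3, H1-6 and H1-7 were under the filter, and H1-3 was listed at 0 in every case library.

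In the H2A class 3 of 11 tested genes were upregulated, where 7.34% of all tested genes were. H2AC6 (ENSG00000180573, chr6:26124145-26139116) was its most abundant gene, at 55.2, 55.7 and 51.3 FPKM in the control group and 68.9, 78.2 and 78.6 FPKM in the case group. The groups were well apart, with the lowest case library above the highest control library by more than the range of the control libraries. Its log2 fold change was 0.55 (SE 0.08, limma adjusted p = 0.0101) with 1488 to 2094 whole reads in each library.

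H2AC20 (ENSG00000184260, chr1:149886918-149887411), in the cluster on chromosome 1, was at 5.64, 4.72 and 4.87 FPKM in the control group and 8.44, 6.71 and 7.84 FPKM in the case group. Its log2 fold change was 0.66 (SE 0.13, limma adjusted p = 0.0218), without overlap. H2AC12 (ENSG00000274997, chr6:27147106-27147562) was at 0.555, 0.432 and 0.595 FPKM and at 0.928, 1.93 and 2.52 FPKM. It rested on 11 reads over the control libraries and 33 over the case libraries, for a log2 fold change of 1.57 (SE 0.33, limma adjusted p = 0.0248). The case values of H2AC12 spread over a wider range than the control values.

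The other 8 H2A genes did not pass the threshold, with log2 fold changes from -0.15 (H2AC13) to 1.31 (H2AC16). H2AC8 was at 5.48, 4.38 and 3.62 FPKM and at 8.93, 5.02 and 8.44 FPKM, and case replicate 2 fell within the range of the control libraries.

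In the H2B class 3 of 9 tested genes were upregulated, where 7.34% of all tested genes were. The most abundant H2B gene was not among the 3. H2BC12 (ENSG00000197903, chr6:27146361-27146855) was at 331, 317 and 335 FPKM in the control group and 351, 314 and 306 FPKM in the case group. The groups overlapped, and the log2 fold change of 0.06 (SE 0.09, limma adjusted p = 0.687) turned to -0.02 with FPKM as deposited and to -0.14 with TPM. H1-2 and H2BC12 together made up between 74.3% and 80.8% of the summed FPKM of the replication-dependent genes in each library.

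The upregulated H2B genes were H2BC4, H2BC11 and H2BC17. H2BC11 (ENSG00000124635, chr6:27125897-27132795) was at 9.04, 9.63 and 9.87 FPKM in the control group and 12.3, 12.5 and 14.5 FPKM in the case group, with a log2 fold change of 0.53 (SE 0.09, limma adjusted p = 0.0166). H2BC4 (ENSG00000180596, chr6:26086317-26123926) was at 8.49, 6.49 and 8.21 FPKM and at 9.40, 12.9 and 10.5 FPKM, with a log2 fold change of 0.57 (SE 0.14, limma adjusted p = 0.0338). Both had every case library above every control library. An annotated exon of H2BC4 overlaps HFE on the opposite strand, and without strand the reads of the genes cannot be told apart. A further annotated gene (ENSG00000291336) overlaps exons of H2BC4 on the opposite strand and of H2AC6 on the same strand.

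H2BC17 (ENSG00000274641, chr6:27893425-27893891) was at 1.13, 0.879 and 1.36 FPKM in the control group and 1.88, 2.78 and 3.42 FPKM in the case group. Its log2 fold change came to 1.25 (SE 0.23, limma adjusted p = 0.0185), on 23 reads over the control libraries and 49 over the case libraries. The other 6 tested H2B genes had log2 fold changes from -0.06 (H2BC21) to 0.89 (H2BC18), and H2BC5 came near the threshold (limma adjusted p = 0.0527).

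**Figure D3:**
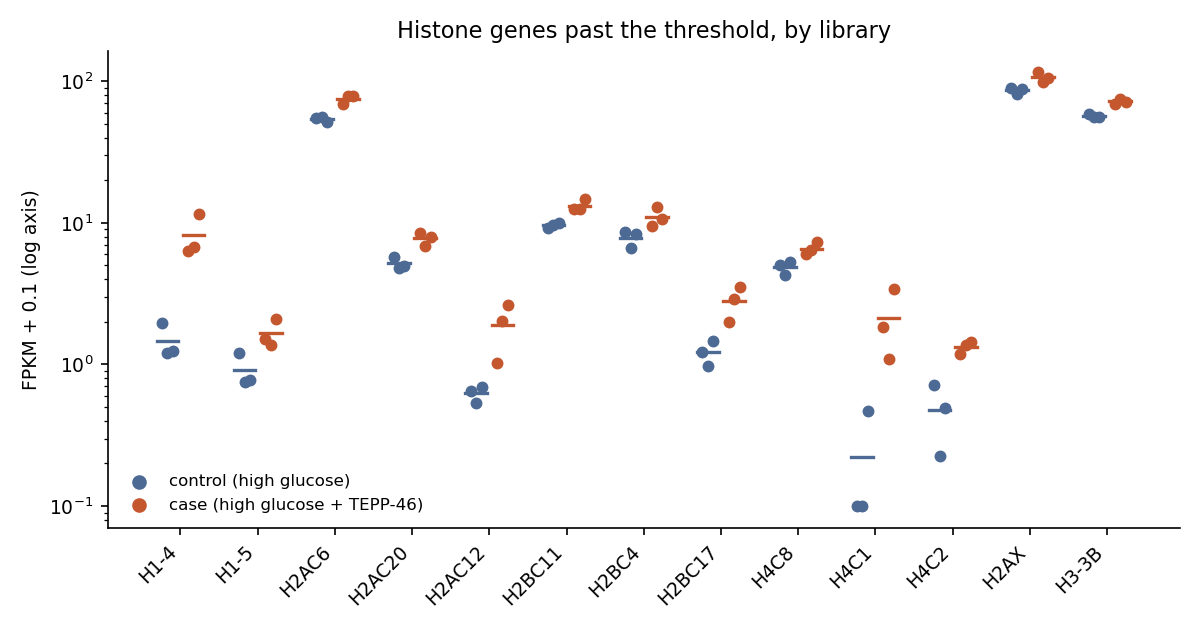
FPKM + 0.1 on a log axis (y axis) of the 13 upregulated histone genes (x axis) in each of the 3 control and 3 case libraries (points), with the group means as lines. Every gene has its case points above its control points, from H4C1 with 2 control libraries at 0 to H2AX at 81.6 to 115 FPKM.

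Many H2A and H2B genes lie head to head and share the stretch between their starts. The annotation holds 12 such pairs, with 169 to 250 bases between the starts, and in 5 of them both genes were tested. Both genes were upregulated in 1 pair, H2BC4 and H2AC6. In 3 pairs 1 gene was upregulated, and its partner had a log2 fold change of 0.13 (H2AC11, partner of H2BC11), 0.06 (H2BC12, partner of H2AC12) and -0.06 (H2BC21, partner of H2AC20). In the pair of H2BC13 and H2AC13 neither passed, at 0.29 and -0.15. The differences within pairs were not tested.

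The shared stretch of H2BC4 and H2AC6 is shown because it is the start region of the pair in which both genes were upregulated. It covers 218 bases between the annotated starts, chr6:26123927-26124144 in GRCh38.p14, printed on the plus strand, 5′ to 3′, from the promoter sequences of RefSeq. Capitals mark matches to CCAAT and to the octamer ATTTGCAT on either strand (ATTGG and ATGCAAAT on the strand shown).
H2BC4 to H2AC6: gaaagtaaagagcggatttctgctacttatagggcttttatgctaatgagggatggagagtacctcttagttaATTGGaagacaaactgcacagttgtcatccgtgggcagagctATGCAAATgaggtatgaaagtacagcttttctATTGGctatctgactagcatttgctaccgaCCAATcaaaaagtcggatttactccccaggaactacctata
The stretch holds 3 matches to CCAAT, at bases 74, 148 and 178, and 1 to the octamer, at base 116, with no overlap between them.

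These motifs were counted in the 300-base promoter windows of RefSeq, which were given for 74 of the 79 genes (not for H2AC12, H3C11, H3C12, H4C1 and H4C3). The octamer on either strand was in 11 of 16 H2A and 14 of 18 H2B windows, in 1 of 11 H3 windows (that of H3C4, which is the window of H2AC7), in none of the 8 H1 and 13 H4 windows, and in 1.77% of all 35116 windows. CCAAT was in every H1, H2A, H2B and H3 window, in 3 of 13 H4 windows and in 34.6% of all windows. Paired genes share part of a window, so that these counts are not independent. Windows lie at the RefSeq start, which for H2BC6, H3C4 and H3-3B is far from the start of the gene in GENCODE. Of the upregulated genes with a window, H2AC6, H2AC20, H2BC4, H2BC11 and H2BC17 hold the octamer, as does the variant H3-3B, and H1-4, H1-5, H4C2, H4C8 and H2AX do not.

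No H3 gene was a DE gene, and the class was low. Of the 4 tested, 1 had an unadjusted p under 0.05, and voom on whole reads called none. With a pseudocount of 1, quantile normalization, robust estimation or the filter in each group 1 gene passed, H3C13. The most abundant, H3C10 (ENSG00000278828, chr6:27810051-27811300), was at 5.86, 4.56 and 5.81 FPKM in the control group and 5.66, 6.10 and 5.10 FPKM in the case group, with overlap. Its log2 fold change was 0.14 (SE 0.13, limma adjusted p = 0.486) and turned to -0.0608 with TPM. H3C13, H3C8 and H3C1 had log2 fold changes of 1.203, 0.37 and -0.84 on 13 to 60 reads over the control libraries, and the closest to the threshold was H3C13 (limma adjusted p = 0.0541). H3C1 rested on 24 reads in the control libraries and 11 in the case libraries, and its groups overlapped. H3C14 and H3C15 are near-identical copies, and each had at most 4 reads in either group.

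The H4 genes tested encode the same protein from separate loci. H4C9 (ENSG00000276180, chr6:27139282-27139678) was the most abundant, at 12.1, 12.4 and 13.8 FPKM in the control group and 17.0, 14.2 and 17.4 FPKM in the case group. Its values did not overlap, but the log2 fold change of 0.41 (SE 0.12) fell just outside the threshold (limma adjusted p = 0.0519). H4C8 (ENSG00000158406, chr6:26277609-26285638) lay just inside it, at 4.96, 4.15 and 5.19 FPKM and at 5.89, 6.28 and 7.25 FPKM, with a log2 fold change of 0.51 (SE 0.12, limma adjusted p = 0.032). In both genes every case library was above every control library. An annotated exon of H4C8 overlaps a noncoding RNA on the opposite strand.

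The largest fold changes of the class belonged to genes near the limit of detection. H4C1 (ENSG00000278637, chr6:26021649-26022050) was listed at 0, 0 and 0.369 FPKM in the control group and at 1.73, 0.999 and 3.34 FPKM in the case group. This is 2 reads over the control libraries against 30 over the case libraries, a ratio of 17.7 relative to the reads of the libraries (exact conditional binomial 95% interval 4.498 to 153.1, counting error only), and the log2 fold change of 3.55 (SE 0.68, limma adjusted p = 0.0202) depends on the pseudocount. H4C2 (ENSG00000278705, chr6:26026896-26027283) was at 0.613, 0.127 and 0.394 FPKM and at 1.09, 1.28 and 1.34 FPKM, with a log2 fold change of 1.69 (SE 0.41, limma adjusted p = 0.0354) on 9 and 26 reads. Both had a control mean under the filter. H4C3 was at 2.66 with a standard error of 0.82 and did not pass (limma adjusted p = 0.0676), and the other 3 tested H4 genes ran from -0.81 (H4C11) to 0.37 (H4C12).

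The 18 genes of the table under the filter had means of at most 0.459 FPKM, and the highest single value was 1.598 FPKM (H4C4 in case replicate 2). H4C5 was listed at 0 in every library.

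Among the variant genes, 2 of 8 were upregulated, where 7.34% of all tested genes were. Of the 8 variant genes, 7 had a log2 fold change above 0. H3-3B (ENSG00000132475, chr17:75776434-75785893) encodes H3.3, the H3 variant placed into chromatin outside replication. It was at 58.4, 55.6 and 56.1 FPKM in the control group and 69.4, 74.5 and 71.6 FPKM in the case group. The groups were far apart relative to their spread, and the log2 fold change was 0.42 (SE 0.07, limma adjusted p = 0.0143). Its exons overlap UNK on the opposite strand and the microRNA gene MIR4738 on the same strand.

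H3-3A (ENSG00000163041, chr1:226061851-226072019) encodes the same protein from another locus. It was at 75.6, 72.6 and 70.0 FPKM in the control group and 66.1, 68.4 and 72.0 FPKM in the case group, with overlap, and its log2 fold change was -0.0035 (SE 0.07, limma adjusted p = 0.978). The ratio of H3-3B to H3-3A within a library was 0.772, 0.765 and 0.801 in the control group and 1.05, 1.09 and 0.994 in the case group. The ratio was therefore higher in every case library, and it does not depend on the scaling between libraries. Pseudogenes of this family were listed at 105 to 165 FPKM (H3P6) and 24.5 to 36.7 FPKM (H3P16), so that reads may have been shared between them and H3-3A.

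H2AX (ENSG00000188486, chr11:119093874-119095465), whose protein is phosphorylated around DNA breaks, was at 89.6, 81.6 and 87.5 FPKM and at 115, 97.9 and 106 FPKM. Its log2 fold change was 0.38 (SE 0.10, limma adjusted p = 0.0445), without overlap. H2AX is the variant gene that holds the stem-loop, and its annotation runs 1024 bases past it.

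The linker variant H1-10 (ENSG00000184897, chr3:129314771-129316286), had the largest log2 fold change of the variant genes and the widest spread. It was at 54.3, 49.7 and 76.9 FPKM in the control group and 116, 67.4 and 77.4 FPKM in the case group. Control replicate 3 lay among the case libraries, and 0.59 (SE 0.24) did not pass the threshold (limma adjusted p = 0.129).

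H2AZ1 (ENSG00000164032, chr4:99948086-99950355) and H2AZ2 (ENSG00000105968, chr7:44826791-44848087) encode forms of H2A.Z, which marks the nucleosomes beside active promoters. H2AZ1 was at 131, 124 and 117 FPKM in the control group and 134, 132 and 167 FPKM in the case group (log2 fold change 0.29, SE 0.11, limma adjusted p = 0.109). H2AZ2 was at 31.3, 31.8 and 31.9 FPKM and at 33.7, 37.2 and 33.6 FPKM (0.21, SE 0.07, limma adjusted p = 0.082). In both genes every case library was above every control library without the threshold being passed.

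The macroH2A variants, large forms of H2A associated with silent chromatin, showed no difference beyond the spread. MACROH2A1 (ENSG00000113648, chr5:135334381-135399914) was at 9.10, 8.97 and 9.46 FPKM in the control group and 9.62, 8.23 and 8.63 FPKM in the case group (log2 fold change 0.02, SE 0.10, limma adjusted p = 0.92, and -0.0582 with FPKM as deposited). MACROH2A2 (ENSG00000099284, chr10:70052544-70112282) was at 38.3, 39.1 and 43.1 FPKM and at 46.1, 39.2 and 40.3 FPKM (0.14, SE 0.10, limma adjusted p = 0.391, and -0.0635 with TPM). Exons of MACROH2A2 overlap AIFM2, which the study lists as upregulated, on the opposite strand. Those of MACROH2A1, H1-10, H2AZ1 and H3-3A overlap noncoding RNAs on the opposite strand (among them PITX1-AS1, H1-10-AS1, H2AZ1-DT and H3-3A-DT). Without strand, such reads cannot be told apart. In order of mean FPKM the variant genes were H2AZ1 and H2AX, then H1-10, H3-3A and H3-3B, and then MACROH2A2, H2AZ2 and MACROH2A1. The order of the middle genes differed between the groups, with H3-3A (72.8), H1-10 (60.3) and H3-3B (56.7) in the control group and H1-10 (86.8), H3-3B (71.8) and H3-3A (68.8) in the case group.

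The summed FPKM shows how the classes contribute. Over the 53 replication-dependent genes the sum was 855, 824 and 865 in control replicates 1, 2 and 3 and 1012, 914 and 1009.8 in case replicates 1, 2 and 3. Over the 8 variant genes it was 488, 463 and 492 in the control group and 589.8, 525 and 576 in the case group. Both sums were higher in every case library, and in both case replicate 2 was the lowest of its group. After scaling, the ratio of the group means was 1.22 for the replication-dependent and 1.24 for the variant genes, and with TPM it was 1.06 and 1.075.

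By class, the ratio after scaling was 1.498 for H4, 1.45 for H2A, 1.30 for H1, 1.10 for H3 and 1.08 for H2B. The sum of H4 was 23.3, 26.0 and 28.2 FPKM in the control group and 34.7, 37.4 and 38.0 FPKM in the case group, and that of H2A was 89.95, 84.5 and 77.4 FPKM and 109.8, 116 and 120.0 FPKM. In these classes the groups were separate. The sum of H2B overlapped as deposited, at 378, 366 and 385 FPKM in the control group and 407, 379 and 367 FPKM in the case group, and its ratio was 0.937 with TPM. The sum of H3 overlapped as well.

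**Figure D4:**
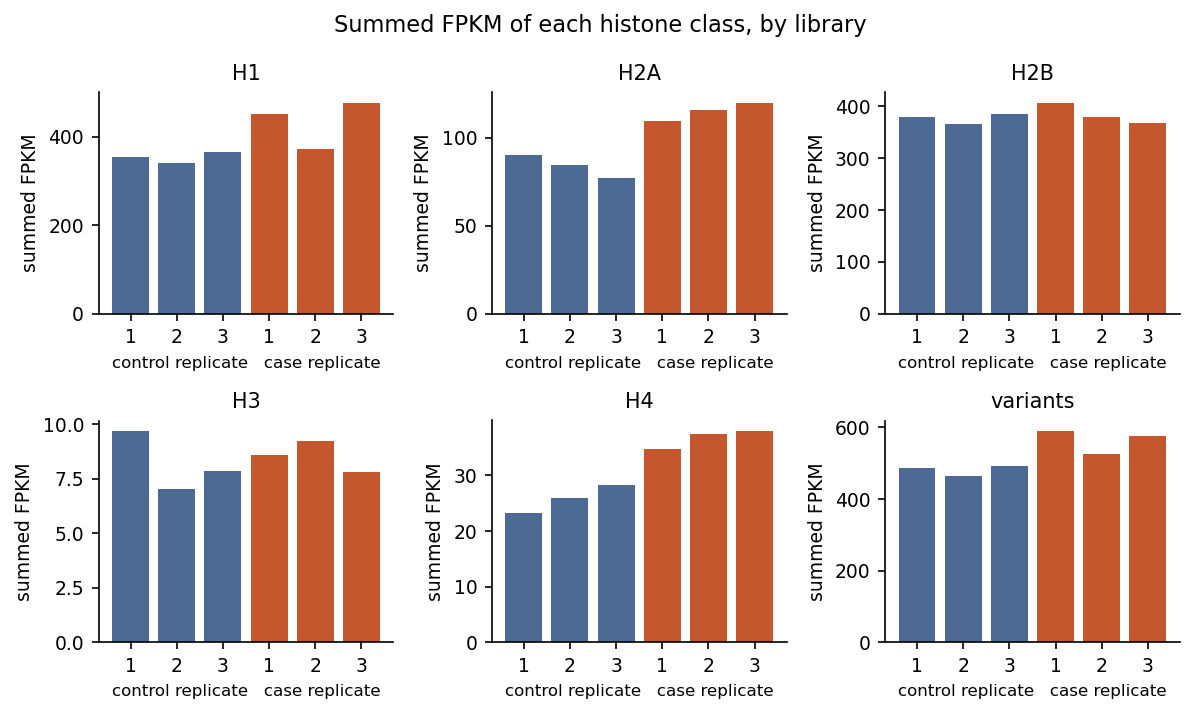
Summed FPKM as deposited (y axis, from 0) of each histone class in the 3 control libraries (left) and 3 case libraries (right). The bars of the case group stand above those of the control group in H1, H2A, H4 and the variants, and the groups overlap in H2B (366 to 385 FPKM against 367 to 407 FPKM) and H3.

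Variant and replication-dependent genes were set side by side. With the filter in each group, 2 of 8 variants and 11 of 26 replication-dependent genes were upregulated, where 7.78% of all genes tested under that filter were. Log2 fold changes of the upregulated variants were 0.38 and 0.42. With the filter over all 6 libraries, those of the upregulated replication-dependent genes lay between 0.51 and 2.54 without H4C1 and H4C2. These 2 genes passed that filter only through the case group. With the filter in each group the upregulated replication-dependent genes also included H4C9, at 0.41, which lies between the values of the upregulated variants. The ratio of the replication-dependent sum to the variant sum was 1.753, 1.78 and 1.756 in the control libraries and 1.716, 1.742 and 1.753 in the case libraries, so that the lowest control and the highest case library met. No difference between the groups of genes was tested.

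Annotated transcripts that run past the stem-loop could carry a poly(A) tail, and some replication-dependent genes have them. Of the tested genes, 11 had an annotated transcript that ends more than 100 bases past the stem-loop, and 4 of these were upregulated (H2AC6, H2BC4, H2BC11 and H4C8), with a median of 0.32 for the log2 fold change and of 9.33 FPKM for the level. In 23 the annotation ended within 100 bases of the stem-loop, and 7 of these were upregulated, where 7.34% of all tested genes were. The medians of the 23 genes were 0.94 and 1.16 FPKM. The filter bears on this contrast, because 7 of the 23 genes and 1 of the 11 passed it only through the case group. With the filter in each group, 7 of 15 and 4 of 10 were upregulated, where 7.78% of all genes tested in this way were. The medians of the log2 fold change over the 15 and the 10 genes were 0.66 and 0.32. The filter in each group also left out H4C11, 1 of the 23, with a case mean of 0.453 FPKM. The groups rest on GENCODE transcript ends. In some genes of both groups, the length recovered from the FPKM values differed from that of the GENCODE exons. It was 1294 against 397 bases for H4C9 and 2411 against 496 for H3C8, both among the 23. For H2BC4, among the 11, it was 834 against 2881 bases. The groups therefore may not match the gene models on which reads were counted. The difference in fold change between these groups of genes was not tested.

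The factors that make, process and degrade histone mRNA were followed next. Of 28 such genes tested, 2 were upregulated (7.14%, against 7.34% of all tested genes) and 1 was downregulated (3.57%, against 5.84%), with a median log2 fold change of 0.04. An unadjusted limma p under 0.05 was reached by 11 of the 28 in either direction, where 33.1% of all tested genes reached it. Log2 fold changes were above 0 in 16 and below 0 in 12. CDK2, the kinase that activates the histone transcription coactivator NPAT, rose from 9.91, 11.2 and 10.1 FPKM to 13.4, 12.1 and 13.4 FPKM (0.39, SE 0.10, limma adjusted p = 0.0359). LSM10, a part of the particle that cleaves histone pre-mRNA, rose from 34.6, 34.4 and 33.6 FPKM to 42.5, 38.3 and 43.6 FPKM (0.35, SE 0.09, limma adjusted p = 0.0385). The cytoplasmic exonuclease XRN1 fell from 2.85, 3.78 and 3.19 FPKM to 1.34, 2.49 and 1.78 FPKM (-0.73, SE 0.20, limma adjusted p = 0.0487). Of the 20 alternative settings, the call was lost in 11 for LSM10, 10 for XRN1 and 9 for CDK2.

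SLBP, which binds the stem-loop, was the most abundant of these factors and did not pass the threshold. It was at 60.0, 60.3 and 71.2 FPKM in the control group and 71.4, 68.2 and 74.0 FPKM in the case group (0.24, SE 0.09, limma adjusted p = 0.122). NPAT was at 2.25, 2.75 and 2.63 FPKM and at 1.62, 2.51 and 1.81 FPKM (-0.29, SE 0.16, limma adjusted p = 0.247). In both genes the groups overlapped.

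Of 27 histone chaperone and chromatin assembly genes tested, 2 were upregulated (7.41%, against 7.34% of all tested genes) and 3 were downregulated (11.1%, against 5.84%), with a median of -0.03. An unadjusted limma p under 0.05 was reached by 14 of the 27 in either direction, where 33.1% of all tested genes reached it. Log2 fold changes were above 0 in 12 and below 0 in 15. HJURP, the chaperone of the centromeric H3 variant, rose from 18.9, 20.4 and 18.0 FPKM to 22.7, 25.1 and 24.7 FPKM (0.41, SE 0.08, limma adjusted p = 0.0204). EP400, a chromatin remodeller, fell from 4.36, 4.17 and 3.94 FPKM to 2.04, 3.14 and 2.07 FPKM (-0.71, SE 0.16, limma adjusted p = 0.0276). HAT1, which acetylates newly made H4, fell from 20.4, 23.9 and 23.1 FPKM to 12.8, 16.4 and 16.7 FPKM (-0.48, SE 0.11, limma adjusted p = 0.0298). Of the 20 alternative settings, the call was lost in 8 for EP400 and in 6 each for HJURP and HAT1. ANP32E, which removes H2A.Z from chromatin, was the most abundant, with a mean of 71.9 FPKM, and did not pass (-0.34, limma adjusted p = 0.0821).

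The genes of S phase and DNA replication stand beside the histone genes because the share of cells in S phase was not measured. Of 40 tested, 3 were upregulated (7.5%) and 2 were downregulated (5%), near the 7.34% and 5.84% of all tested genes, with a median of 0.08. An unadjusted limma p under 0.05 was reached by 19 of the 40 in either direction, where 33.1% of all tested genes reached it. The log2 fold change was above 0 in 27 of the 40 and below 0 in 13. UHRF1, which keeps DNA methylation after replication, fell (-0.36, SE 0.07, limma adjusted p = 0.0204), and RFC4, of the clamp loader, and CDC45, of the replicative helicase, rose (0.45 and 0.35, limma adjusted p = 0.0214 and 0.0309). Of the 20 alternative settings, the call was lost in 10 for CDC45, 7 for RFC4 and 5 for UHRF1. TK1, the most abundant, was at 284, 271 and 274 FPKM in the control group and 321, 252 and 279 FPKM in the case group. Their summed FPKM was between 1467 and 1493 in the control libraries and between 1472 and 1544 in the case libraries, with overlap.

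Other RNAs that lack a poly(A) tail were followed in the same libraries. Of 58 tested small nucleolar, Cajal body and Pol III RNAs, 4 were upregulated and 4 were downregulated (6.9% each, near the 7.34% and 5.84% of all tested genes), with a median of 0.13. An unadjusted limma p under 0.05 was reached by 17 of the 58 in either direction, where 33.1% of all tested genes reached it. Log2 fold changes were above 0 in 30 and below 0 in 28. SNORD3A, the nucleolar RNA needed for ribosomal RNA cleavage, rose from 0.691, 0.718 and 0.659 FPKM to 2.65, 4.28 and 5.21 FPKM (2.41, SE 0.22, limma adjusted p = 0.0022). SCARNA7 was listed at 0 in every control library and at 1.27, 1.70 and 1.18 FPKM in the case group, on 0 against 22 reads. It passed the filter only through its case values (limma adjusted p = 0.0043). RN7SL2, an RNA of the signal recognition particle and the most abundant of the list, rose from 87.6, 38.9 and 75.8 FPKM to 155, 583 and 434 FPKM (2.49, SE 0.47, limma adjusted p = 0.0197). The sum of the list was 184, 149.9 and 193 FPKM in control replicates 1, 2 and 3 and 232, 755 and 579.9 FPKM in case replicates 1, 2 and 3. Without RN7SL2 it was 96.5, 111 and 118 FPKM and 76.8, 171 and 146 FPKM, and case replicate 1 lay below every control library. Case replicate 2, the highest library of this list, was the lowest case library for the sums of the replication-dependent and variant histone genes, while the sums of H2A and H4 and of this list were lowest in case replicate 1 among the case libraries. The part of RNA selection in the histone result was not tested.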

How the data were processed

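RNA of 6 HK-2 libraries was sequenced. Per the labels and the paper's methods, the authors aligned reads to GRCh38.p13 with HISAT2 2.1.0, counted them on genes with HTSeq 0.6.0 and deposited FPKM values. The study describes uniquely mapped reads. RNA selection, strandedness, annotation version and whether gene counts included reads with several positions are not given in the sources used here. From the steps of the FPKM values, whole reads were recovered for 27922 genes (tolerance 0.02 reads), between 15308173 and 18569985 per library. Intervals cover counting error only.

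Symbols came from GENCODE 44. Median-of-ratios factors ran from 0.944 to 1.04. Log2(FPKM + 0.1) was tested by limma 3.58.1 in R 4.3.3 with an intensity trend and Benjamini-Hochberg adjustment. A count test such as the authors' was not applied to FPKM, and voom on the recovered reads was an alternative. Scripts were tested on simulated data. Members and lists were chosen with earlier results of these data known. Named were upregulated members, all variants, the most abundant gene of each class, H1-4, and from other lists the 3 DE genes of smallest p, the most abundant gene, SLBP and NPAT. H2AC8, H2AC13 and further members were named after their values had been seen. One further gene is not reported here and was left out of the counts, medians and sums of the histone genes.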

Additional observations from a re-analysis of the deposited data

How the results depend on the processing

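The number of DE genes among all tested genes was 1792, and it was 520 with no filter on low values, 2770 with TPM, 852 with no intensity trend, 898 with the replicate block and length correction together, 2807 with voom on whole reads, and between 69 and 3495 when single replicates were left out. Higher and lower calls numbered 662 and 1124 with FPKM as deposited and 383 and 2387 with TPM, and these scalings moved the median of all tested genes to -0.08 and -0.19.

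Upregulated replication-dependent genes numbered 3 with no filter, 7 with no intensity trend or with the length correction, 4 with the replicate block and length correction, and between 1 and 13 without single replicates. Upregulated variant genes numbered 1 with no filter, quantile normalization, no intensity trend, the length correction, or the replicate block with it, 0 with TPM, and between 0 and 3 without single replicates. The replicate block alone gave 14 histone genes, of which 11 were shared with the 13 reported. The correlations of deviations between samples of the same number were 0.0634, 0.0999 and -0.0535. Between samples of different numbers they ran from -0.182 to 0.117. With 3 libraries per group, these values cannot decide whether samples of the same number were handled together.

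The median log2 fold change of the replication-dependent genes was 0.42 with a pseudocount of 1, 0.33 with no filter or with TPM, 0.37 with the length correction, also with the replicate block, and 0.39 with the filter in each group, and that of the variant genes was 0.0502 with TPM and 0.0888 with quantile normalization. Without single replicates the medians ran from 0.48 to 0.55 and from 0.21 to 0.29. The ratio of summed FPKM was 1.06 (TPM) and 1.05 (quantile normalization) for the replication-dependent genes, and 1.075 and 1.10 for the variant genes.

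Calls among the histone mRNA factors numbered 0 with no filter or no intensity trend, 5 with a mean FPKM of at least 1 or TPM, 1 with the replicate block and length correction, 8 with voom, and 0 to 9 without single replicates. Chaperones gave 1 with no filter or no intensity trend, 8 with TPM, 3 with the replicate block, 2 with the length correction added, 9 with voom, and 0 to 9 without single replicates. S phase genes gave 2 with no filter, 8 with TPM, 1 with no intensity trend or the replicate block and length correction, 10 with voom, and 0 to 13 without single replicates. Nonpolyadenylated RNAs gave 5 with a pseudocount of 0.01, no filter or quantile normalization, 4 with a mean FPKM of at least 1, with a mean of at least 0.5 in each group or with no intensity trend, 3 with voom, and 2 to 14 without single replicates.

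Directions reversed in genes that did not pass the threshold. With TPM the log2 fold change was -0.14 for H2BC12, -0.061 for H3C10, -0.18 for MACROH2A1, -0.064 for MACROH2A2 and -0.090 for TK1. With the length correction, also with the block, it was -0.135 for H2BC12, -0.034 for H3C10, -0.019 for MACROH2A2 and -0.048 for TK1. With quantile normalization it was -0.19 for H2BC12 and -0.14 for TK1, and with FPKM as deposited -0.017 for H2BC12 and -0.058 for MACROH2A1. Without single replicates the value ran from -0.023 to 0.11 for H2BC12 (below 0 without case replicate 1), from -0.034 to 0.026 for H3-3A (above 0 without control replicate 1 or case replicate 1 or 2), from -0.067 to 0.089 for MACROH2A1 (below 0 without case replicate 1 or control replicate 2) and from -0.0047 to 0.22 for TK1 (below 0 without case replicate 1). The causes were not tested. Depth limits the genes under about 1 FPKM, which rest on few reads per library.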

Other observations

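Histone genes outside the lists compared above were read from the same table. CENPA, the H3 variant of centromeres, was at 21.95, 21.6 and 26.8 FPKM in control replicates 1, 2 and 3 and at 31.6, 26.4 and 29.7 FPKM in case replicates 1, 2 and 3. H2AJ, an H2A variant, was at 25.3, 22.5 and 24.7 FPKM in the control group and at 30.2, 25.6 and 29.4 FPKM in the case group. H3-4, H3-5 and H2BC12L were at most at 0.700 FPKM in any library.

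By position, the upregulated replication-dependent genes lay in each of the 3 main clusters. On chromosome 6 there were 6 of 13 tested genes between 26020451 and 26285638 and 4 of 15 between 27125897 and 27893891, with medians of the log2 fold change of 0.57 and 0.37, where 7.34% of all tested genes were upregulated. On chromosome 1, between 149782689 and 149887965, there was 1 of 6, H2AC20, with a median of 0.77. In the same order, 5, 1 and 2 of the tested genes passed the filter only through the case group. With the filter in each group, 4 of 8, 5 of 13 and 2 of 4 were upregulated, with medians of 0.53, 0.37 and 0.37, where 7.78% of all genes tested in this way were upregulated. The 13 also lack H4C11, which had a case mean of 0.453 FPKM. The difference between clusters was not tested.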
